A study of Mus musculus with 9 samples.

Results

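Primary neonatal mouse ventricular myocytes (NMVMs) from wild-type C57BL/6J pups, 1 day old, were compared after deprivation of oxygen, glucose and serum and after culture in complete medium. The comparison took in the 3 control and the 3 hypoxia libraries of a series of 9, chosen by their group labels, and covered all 16762 genes with enough counts to be tested. Control cells stayed in normoxia in DMEM with 10% fetal bovine serum. Hypoxia cells were washed, moved to DMEM that held neither glucose nor serum, and kept for 6 h in a closed chamber with an oxygen-absorbing AnaeroPack. The last 3 libraries came from cells given the same deprivation together with recombinant SRGN, and they entered the fit only to share its estimate of the spread. The 3 losses were imposed at once and with a change of medium, so their shares in any difference cannot be told apart. The labels do not say whether the libraries of a group came from separate cultures, and the p-values measure the spread between these libraries, which may be technical.

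Cardiac muscle cells make almost all of their ATP in mitochondria, by oxidising fatty acids, lactate and glucose, and spend most of it on the myosin motor and on pumping calcium back into stores. Several stress programmes are known to answer a loss of oxygen and nutrients. HIF transcription factors, which escape degradation when oxygen is short, switch on genes of glycolysis and vessel growth. ATF4 responds to amino acid shortage and to faulty protein folding in the endoplasmic reticulum, and HSF1 responds to misfolded protein in the cytosol by switching on heat shock protein genes.

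Poly(A)-enriched RNA was sequenced, and the control libraries held 21669017 to 22781557 counts on genes against 16583985 to 18148474 in the hypoxia libraries. Genes with at least 1 count numbered 22941 to 23351 in control and 24027 to 24690 in hypoxia, the less deeply counted group. Any pair of libraries within a group differed by a median of 0.131 to 0.219 on the log2 scale over all genes, while control and hypoxia libraries differed by 0.672 to 0.718. The first principal component held 80% of the variance and put the control libraries on one side of the deprived ones.

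The deposited sample is named for cardiac myocytes, and its defining markers were present. The 10 cardiomyocyte markers summed to 44262 to 54796 CPM (counts scaled to library size) in the control libraries and 3890 to 6011 in hypoxia, and all 10 fell. Markers of other cells were present too. The 8 fibroblast markers summed to 6600 to 7795 CPM in control and 13133 to 15342 in hypoxia, with 5 called higher, and the 6 epicardial markers went from 227 to 255 CPM to 856 to 931, with all 6 called higher. The 8 macrophage markers dropped from 230 to 246 CPM to 24.4 to 27 and all were called lower. For 7 endothelial markers the sums were 67.0 to 92.6 CPM and 42.6 to 51.7, with 6 called lower. Smooth muscle and pericyte markers overlapped between the groups, at 440 to 532 and 529 to 547 CPM, with 1 of 6 higher and 1 lower, and 1 called in all without control replicate 3. None of 4 neutrophil and 4 erythroid markers reached the count needed for testing. In bulk RNA, fewer cells of a type and less RNA per cell cannot be told apart, and this holds for every gene group below.

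**Figure D1:**
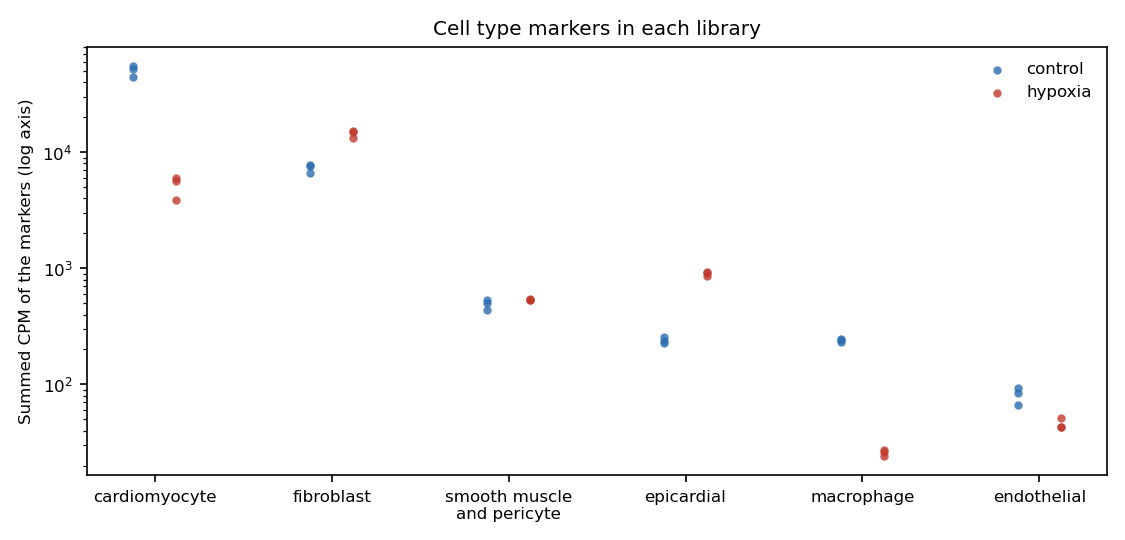
Summed CPM of each cell type's markers (vertical, log axis) in the 3 control and 3 hypoxia libraries, 1 point per library. Cardiomyocyte, macrophage and endothelial sums lie lower in all hypoxia libraries, and fibroblast and epicardial sums lie higher.

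Between hypoxia and control 8644 of the 16762 tested genes, or 51.6%, changed by edgeR's quasi-likelihood test at a Benjamini-Hochberg adjusted p under 0.05 and a fold change of at least 1.5. Of these, 4432 genes (26.4% of those tested) were higher in hypoxia and 4212 (25.1%) were lower. The median change of a called gene was 2.35-fold upward and 2.52-fold downward. Beyond 4-fold there were 945 higher and 1235 lower genes, and beyond 8-fold 444 higher and 650 lower. The order turned at the far end, with 162 higher and 76 lower genes past 32-fold and 104 and 25 past 64-fold. Many of the extreme rises were of scarce transcripts: among genes with a mean of at least 1 CPM, 40 rose and 11 fell by 64-fold or more. At 16-fold or more, 87 of these genes rose and 166 fell, the reverse of the order over all called genes. Over all tested genes the median log2 fold change was 0.05.

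**Figure D2:**
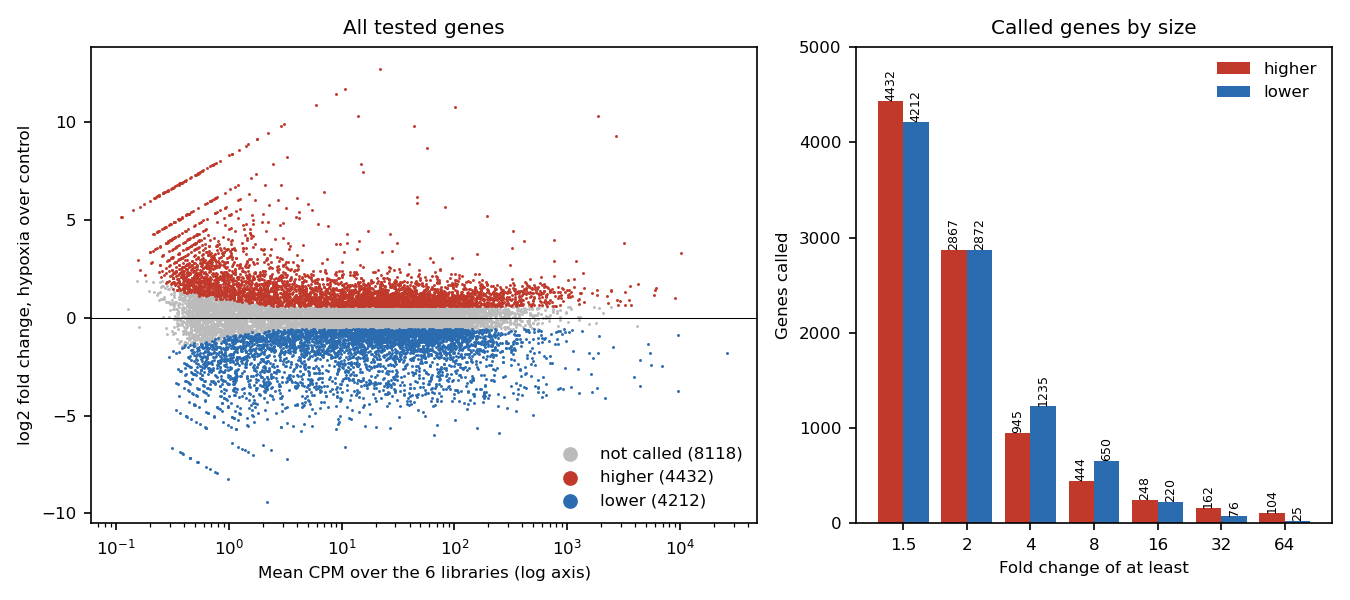
Left, log2 fold change of each of the 16762 tested genes (vertical) against its mean CPM over the 6 libraries (log axis), coloured by call. Right, number of called genes at or past each fold change, where falls outnumber rises at 4-fold and 8-fold and rises outnumber falls from 16-fold.

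The size and direction of change went with the kind and length of the gene. Protein-coding genes split almost evenly, with 3306 of 13897 higher and 3616 lower. Other classes differed in direction: 353 of 718 processed pseudogenes rose and 67 fell, 17 of 27 small nucleolar RNA genes rose and 1 fell, and 192 of 560 antisense genes rose and 129 fell. Of 448 lincRNA genes 133 rose and 154 fell, and of 39 unprocessed pseudogenes 14 rose and 15 fell. Reads of a processed pseudogene and its parent gene, or of an antisense gene and its partner, cannot always be told apart in counts made without a strand setting. Among protein-coding genes in the fifth with the shortest exon length (median 1817 bases), 35.7% were higher and 20.1% lower, with a median log2 fold change of 0.30. In the fifth with the longest (median 9987 bases), 12.6% were higher and 34.7% lower, with a median of −0.28. The rank correlation of log2 fold change with exon length across protein-coding genes was −0.20, a description over genes of the same 6 libraries, and that with genomic span was −0.18. On the autosomes 23.3% to 29.8% of genes were higher, while 22 of 28 tested mitochondrial genes were lower and 4 higher. The part of RNA quality in the trend with length was not tested.

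Contractile genes fell deeply as a group. The 14 tested genes of the thick filament, the 12 of the thin filament and the 15 of titin and the Z-disc were all called lower, with list medians of −3.58, −3.52 and −3.59 on the log2 scale. Myh6, the adult cardiac myosin motor, stood at 14783, 18724 and 20287 CPM in the control libraries and 1679, 1454 and 904 CPM in hypoxia. No hypoxia library came near the lowest control, and the fall was 13.3-fold (log2 fold change −3.74 ± 0.16 SE, edgeR adjusted p = 5.5e-15). Myh7, the slow myosin, went from 915 to 995 CPM to 19.1 to 40.2, a 30.9-fold fall. Tnnt2, which anchors troponin to tropomyosin, went from 8693, 9767 and 9478 CPM to 1804, 2009 and 1495. Its 5.26-fold fall was among the smaller ones of the thin filament, where Lmod2, which lengthens actin filaments, fell 50.4-fold from 294 to 343 CPM to 5.27 to 6.71. Xirp1, a protein of the intercalated disc, fell 59.6-fold, and Ttn, the giant spring of the sarcomere, 12-fold. The smallest falls in these lists were those of Pdlim5 (log2 fold change −1.06), Neb (−1.07) and Cfl2 (−1.10).

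Genes of calcium cycling and of the membrane current followed. Of 20 tested calcium handling genes 18 were lower, 1 was higher and 1 was not called, and of 26 ion channel and gap junction genes 24 were lower. Atp2a2, the pump that returns calcium to the sarcoplasmic reticulum, stood at 6356, 6851 and 7446 CPM in control and 988, 935 and 612 in hypoxia, 8.15-fold lower (adjusted p = 3e-15). Pln, the brake on that pump, fell 26.7-fold, from 615 to 767 CPM to 21.6 to 30.7. Ryr2, the release channel, fell 14-fold, and Slc8a1, the sodium-calcium exchanger, 15.2-fold. The largest fall of the group was in Kcne1, a potassium channel subunit, from 106, 108 and 108 CPM to 3.6, 3.81 and 2.43. Sri, a calcium sensor that binds the release channel, was the member called higher, from 58.8 to 59.9 CPM to 93.5 to 117.

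The regulators of the cardiac programme did not move as a block. Among 20 cardiac transcription factors and cofactors 12 were lower, 7 were not called and Gata5 alone was higher, with only 0.580 to 3.44 CPM in any library. Nkx2-5 went from 80.9, 99.8 and 95.3 CPM to 8.43, 8.78 and 6.66, a fall of 11.5-fold. Myocd, the coactivator of muscle genes, fell 12.1-fold, Hopx 20.2-fold and Irx4, which marks ventricle, 29.9-fold. Gata4 fell 1.86-fold, and Mef2a (log2 fold change −0.57), Gata6 (−0.15), Hand2 (−0.27) and Srf (−0.26) did not reach the thresholds. The natriuretic peptides, classic markers of a stressed heart muscle cell, were lower: Nppa at 1946, 2100 and 2312 CPM against 530, 266 and 251, and Nppb at 70.3, 82.2 and 126 against 11.6, 23.5 and 8.17. Corin, the protease that activates them, fell 14.3-fold. In the list of energy shuttle genes 11 of 15 fell, among them Mb, the oxygen store myoglobin (11.5-fold), and Ckm, muscle creatine kinase (11.6-fold), while Ckb, the brain form of creatine kinase, rose 1.67-fold.

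**Figure D3:**
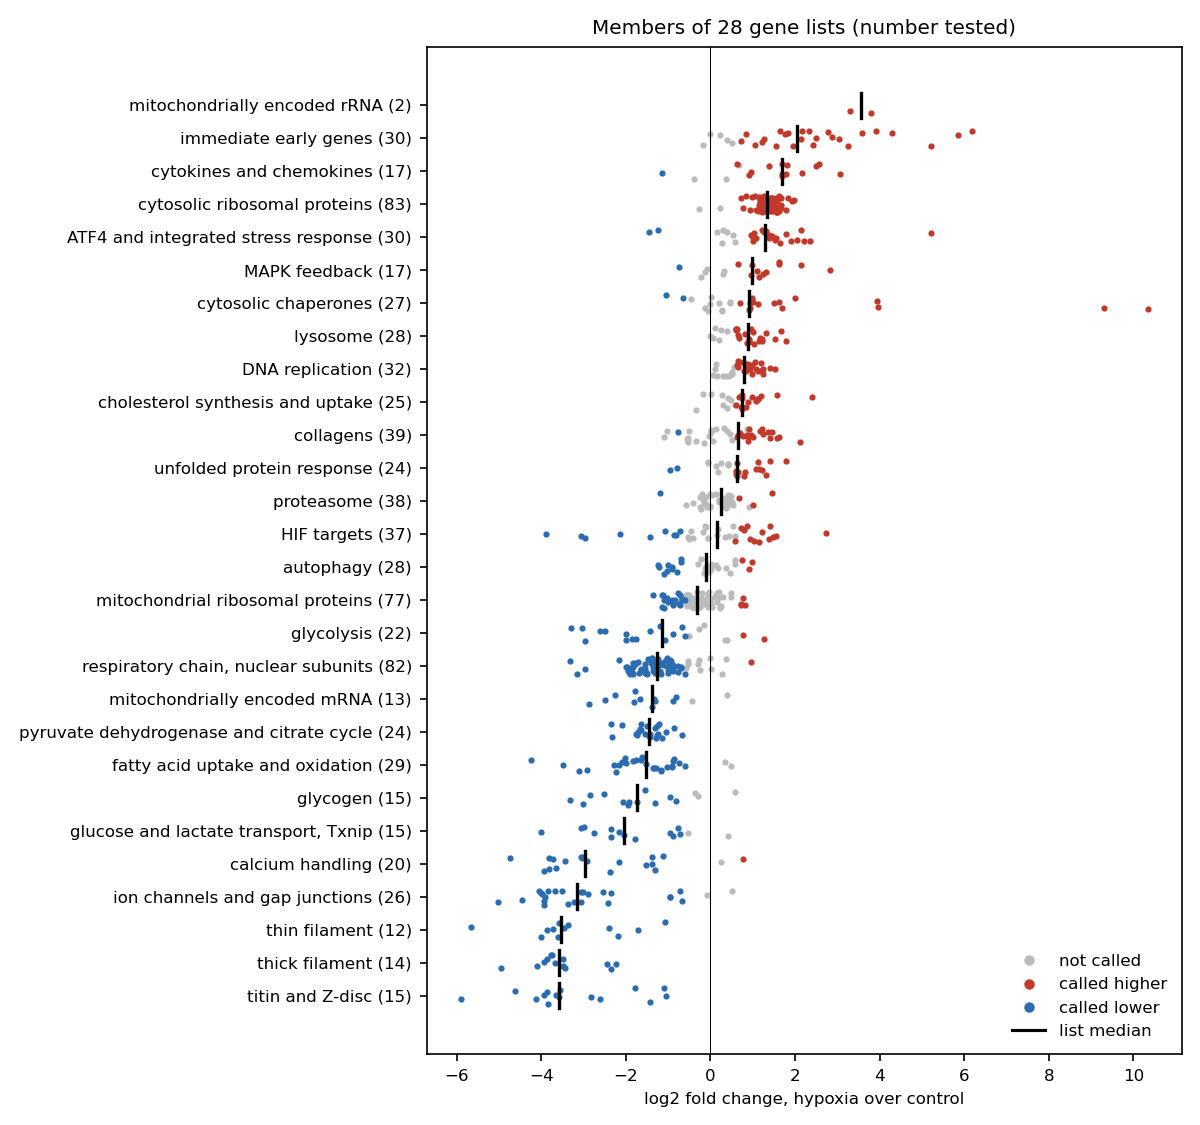
Log2 fold change (horizontal) of every tested member of 28 gene lists, 1 point per gene, coloured by call, with the list median as a black bar and the number tested in parentheses. The medians of contractile, channel and oxidative metabolism lists lie left of 0, and those of ribosomal protein, chaperone, ATF4 and immediate early lists lie right of 0.

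The machinery that burns fuel was lower. All 24 tested genes of pyruvate dehydrogenase and the citrate cycle fell, with a median log2 fold change of −1.45, and 27 of 29 genes of fatty acid uptake and oxidation fell, with a median of −1.53. Cd36, which carries fatty acids into the cell, went from 199, 166 and 182 CPM to 9.83, 10.9 and 8.28, an 18.8-fold fall (adjusted p = 6.5e-19). Acacb, which makes the inhibitor of fatty acid entry into mitochondria, fell 11.2-fold, Acadm, a dehydrogenase of medium-chain fatty acids, 4.69-fold, and Ogdh of the citrate cycle 5.09-fold. Of the respiratory chain subunits encoded in the nucleus, 71 of 82 tested fell, 1 rose and 10 were not called. The deepest falls were those of the muscle forms of cytochrome oxidase, Cox6a2 (9.96-fold) and Cox8b (8.91-fold), whereas Cox4i1, a subunit of all tissues, fell 2.02-fold. The member that rose was Cox4i2, the isoform known for its induction at low oxygen, from 2.51 to 2.97 CPM to 4.28 to 7.07. Of 17 regulators of this programme 9 fell, 7 were not called and Ppard rose (log2 fold change 0.62), short of the fold threshold without control replicate 1 (0.55) or hypoxia replicate 2 (0.58). Among those that fell were Ppara at 17.1 to 20.6 CPM in control against 0.925 to 1.80 and Ppargc1a, the coactivator PGC-1α, at 103 to 115 against 7.93 to 12.1. Mitochondrial ribosomal protein genes moved less, with 20 of 77 lower, close to the share of all genes, 4 higher and 53 not called.

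Transcripts of the mitochondrial genome itself went opposite ways. Messenger RNAs fell for 11 of 13 genes, and their share of all counts went from 9.24%, 8.07% and 8.54% in the control libraries to 2.98%, 3.45% and 2.74% in hypoxia. mt-Co1 lost more CPM than any other gene, from 41712, 37420 and 42143 to 11621, 13487 and 9928. mt-Nd5 fell 5.58-fold, mt-Nd6 7.36-fold and mt-Cytb 1.84-fold, while mt-Nd4 (log2 fold change −0.43) and mt-Atp8 (0.39) were not called. Both ribosomal RNAs of the same genome rose: mt-Rnr2 from 1947, 1628 and 2022 CPM to 19190, 17792 and 18262, and mt-Rnr1 from 410, 382 and 479 to 6239, 5509 and 6066. Their summed share went from 0.195% to 0.239% of counts to 2.31% to 2.61%. The libraries were enriched for poly(A) RNA, and the part of poly(A) selection in these shares was not tested.

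**Figure D4:**
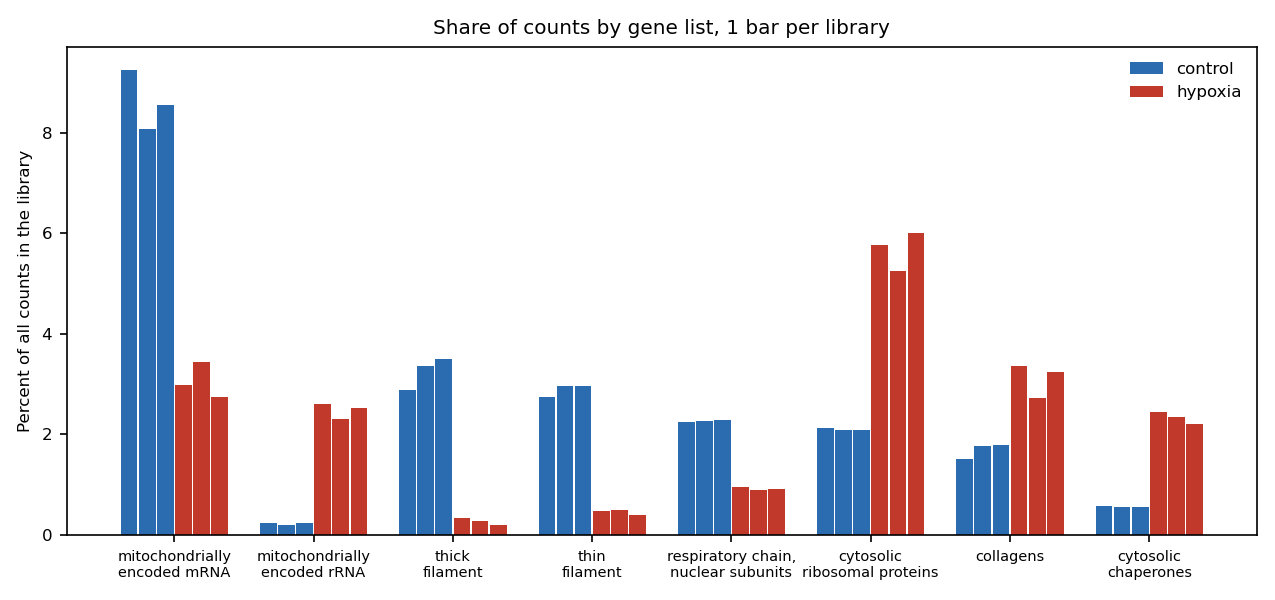
Percent of all counts in a library (vertical, from 0) that fell on 8 gene lists, with 1 bar for each of the 3 control and 3 hypoxia libraries. Mitochondrially encoded messenger RNA, filament and respiratory chain genes lost share in every hypoxia library, and ribosomal protein, collagen, chaperone and mitochondrial ribosomal RNA genes gained it.

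Sugar handling was also lower, and not only in the oxidative part. Glycolysis, which yields ATP without oxygen, had 15 of 22 tested genes lower, 2 higher and 5 not called. Among its enzymes Ldhb, the heart form of lactate dehydrogenase, fell 8.14-fold, Pgam2 9.88-fold and Hk2, the insulin-responsive hexokinase, 3.99-fold. Ldha, the form that makes lactate, stood at 1012, 1117 and 1157 CPM and fell to 509, 565 and 493. The 2 genes that rose, Pfkfb3 and Pfkfb4, encode enzymes that set the level of the main activator of glycolysis: Pfkfb3 went from 15.8, 16.5 and 23.6 CPM to 40.9, 53.4 and 40.5. Gapdh, often used as a reference gene, was at 201 to 240 CPM in control and 141 to 176 in hypoxia, a fold below the threshold. Of 15 genes of glucose and lactate transport and their control 13 were lower, with Slc2a4, the insulin-responsive glucose carrier, down 16.1-fold and Txnip, which rises with glucose, down 3.46-fold. Glycogen genes were lower in 12 of 15, including muscle phosphorylase, Pygm, at 9.99-fold.

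The genes usually read as a sign of low oxygen split in both directions. Of 37 tested HIF targets 13 were higher, 9 lower and 15 not called, against 26.4% higher and 25.1% lower of all genes, and the list median of 0.16 ranged from −0.05 to 0.30 over the other settings and left-out libraries tried, falling below 0 without control replicate 1, control replicate 3 or hypoxia replicate 3. Edn1, the vasoconstrictor endothelin, rose 6.67-fold from 8.63, 10.8 and 11.5 CPM to 71.6, 62.5 and 71.9. P4ha1, which hydroxylates collagen, rose 2.66-fold, and Cited2 2.96-fold, Ndrg1 (log2 fold change 1.48), Adm (1.39) and Hmox1 (1.23) were higher too. Against these, Pdk1, which turns pyruvate away from mitochondria, fell 8.37-fold from 75, 82.6 and 104 CPM to 10.2, 10.6 and 10.5, and Bnip3, a mitophagy receptor, fell 4.39-fold. Tfrc, the transferrin receptor, fell 14.9-fold. Vegfa, the main signal for vessel growth, was at 182, 212 and 219 CPM in control and 176, 203 and 182 in hypoxia and its groups overlapped (log2 fold change −0.13 ± 0.08 SE, adjusted p = 0.17). Slc2a1, the basal glucose carrier, was 1.65-fold lower, but −0.52 on the log2 scale without control replicate 3, short of the fold threshold. In the HIF system itself Hif1a fell 2.88-fold and Hif1an, the asparagine hydroxylase that limits its activity, 4.06-fold, Egln1 and Hif3a were lower, and 6 of 10 members were not called.

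Among the heat shock genes, Hspa1a and Hspa1b, a pair of near-identical genes for inducible HSP70, were almost silent in control. Hspa1a stood at 3.06, 3.12 and 2.37 CPM in control and 3980, 3819 and 3307 in hypoxia, a log2 fold change of 10.34 ± 0.13 SE. Hspa1b stood at 7.28, 8.94 and 9.23 CPM in control and 5891, 5246 and 4903 in hypoxia (9.30 ± 0.13 SE, edgeR adjusted p = 2e-23). The pair share most of their sequence, so the division of reads between them is uncertain. Hsph1, a partner that recharges HSP70, rose 15.6-fold from 86.2 to 97.6 CPM to 1281 to 1574. Dnajb1, which hands HSP70 its clients, rose 15.4-fold from 48.8 to 53 CPM to 706 to 863, and Hsp90aa1, the inducible HSP90, rose 4.02-fold.

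Both HSP70 genes lie on mouse chromosome 17, and the 250 bases before each start are shown because they hold the heat shock element core and differ at only 3 positions (98.8% identical). Hspb1, which encodes a small chaperone, is shown for the 2 matches it holds, and Chac1, which breaks down glutathione, for a match to another motif. Sequences are RefSeq's (GRCm38.p6), written 5′ to 3′ on the gene's strand, with matches to GAANNTTC in capitals in the first 3 and to TGATGNAA or its reverse complement in Chac1. They lie at chr17:34972157-34972406 (minus strand), chr17:34959239-34959488 (minus), chr5:135887669-135887918 (plus) and chr2:119350992-119351241 (plus).
Hspa1a: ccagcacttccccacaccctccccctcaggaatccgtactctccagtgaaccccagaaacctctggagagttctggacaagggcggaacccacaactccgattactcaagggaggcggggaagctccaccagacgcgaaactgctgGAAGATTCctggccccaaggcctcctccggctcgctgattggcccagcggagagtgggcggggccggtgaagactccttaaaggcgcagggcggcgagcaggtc
Hspa1b: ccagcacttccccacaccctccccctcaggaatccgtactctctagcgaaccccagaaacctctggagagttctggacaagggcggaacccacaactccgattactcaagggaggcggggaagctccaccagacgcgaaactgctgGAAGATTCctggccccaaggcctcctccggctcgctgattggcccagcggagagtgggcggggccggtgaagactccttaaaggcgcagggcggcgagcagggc
Hspb1: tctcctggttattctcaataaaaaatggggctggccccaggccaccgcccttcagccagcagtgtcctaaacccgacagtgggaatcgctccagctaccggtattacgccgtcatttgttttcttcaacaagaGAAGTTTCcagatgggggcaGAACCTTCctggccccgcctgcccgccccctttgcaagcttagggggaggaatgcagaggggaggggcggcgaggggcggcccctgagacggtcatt
Chac1: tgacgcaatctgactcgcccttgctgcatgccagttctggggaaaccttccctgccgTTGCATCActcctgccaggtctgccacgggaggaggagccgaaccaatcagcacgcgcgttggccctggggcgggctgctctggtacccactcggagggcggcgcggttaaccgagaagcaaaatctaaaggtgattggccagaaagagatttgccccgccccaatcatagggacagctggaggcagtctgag

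The core GAANNTTC, known for HSF1, begins 104 bases before the start of Hspa1a and of Hspa1b, and 117 and 97 bases before that of Hspb1. In Chac1 the ATF4 composite element begins 193 bases before the start. A promoter could be matched by symbol, strand and a start within 1000 bases for 10616 of the 16762 tested genes. On either strand, 4.86% of these promoters held the core, against 5.40% among genes called higher, 4.26% among those called lower and 7.38% among those higher and 3.57% among those lower by 4-fold or more. Of 23 chaperone genes with a promoter 5 held it, namely Hspa1a, Hspa1b, Dnaja1, Dnajb6 and Fkbp4, and the last of them was not called (log2 fold change 0.00). Hsph1 and Dnajb1, which both rose steeply, were among those without it. Of 5 small heat shock protein genes with a promoter 2 held it, Hspb1, which rose, and Hspb3, which fell. The ATF4 composite element TGATGNAA was in 1.86% of all these promoters, 2.56% of those of higher and 1.74% of those of lower genes. It was in 4.31% of those higher and 2.28% of those lower by 4-fold or more. The HIF core ACGTG, which is part of the E-box CACGTG, was in 21.8% of all, 22.1% of higher and 20% of lower genes, and in 15.4% of those higher and 18.1% of those lower by 4-fold or more. Among the 11 motifs searched, others differed as well. TATAAA, the TATA box, was in 6.75% of all, and in 12.9% of those higher and 10.3% of those lower by 4-fold or more. The GC box GGGCGG was in 59.0%, 39.7% and 44.4% of the same groups, and the AP-1 site TGAGTCA in 2.99%, 4.62% and 3.14%. These shares are descriptions, and a match is not a site that was tested.

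**Figure D5:**
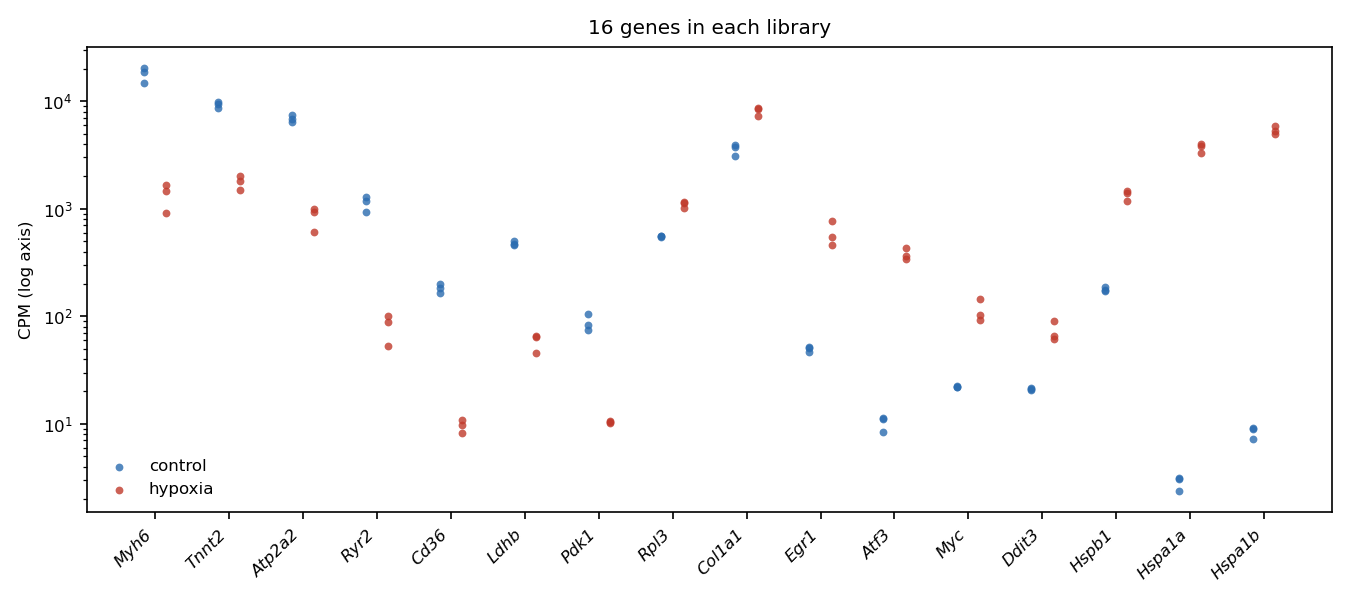
CPM (vertical, log axis) of 16 genes in each of the 3 control and 3 hypoxia libraries, 1 point per library. The libraries of the groups do not overlap for any of the 16, as for 37.7% of all tested genes on the higher and 35.3% on the lower side, with Hspa1a and Hspa1b showing the widest gap.

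Of 27 cytosolic chaperones and their regulators, Hspa1a and Hspa1b included, 15 rose, 2 fell and 10 were not called. Of 7 small heat shock protein genes 4 fell (57.1%, against 25.1% of all genes), 2 were not called and only Hspb1 rose, by 7.60-fold. Cryab was not called (615, 621 and 621 against 650, 552 and 630 CPM), and the muscle forms Hspb7 and Hspb3 fell 8.96-fold and 32.6-fold. In mitochondria the chaperonin pair rose, Hspe1 by 6.58-fold and Hspd1 by 3.40-fold, while Clpx, Afg3l2 and Trap1 fell. The cytosolic chaperonin TRiC had 2 of 8 subunits higher (25%, against 26.4% of all genes), and the proteasome 3 of 38 higher, 1 lower and 34 not called. Under upper-quartile scaling 4 TRiC and 9 proteasome genes were called, and under scaling by library size 7 of the proteasome.

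Known targets of ATF4 and of the unfolded protein response were mostly higher. Of 30 genes of ATF4 and the integrated stress response 22 rose and 2 fell, with a median log2 fold change of 1.29, and of 24 genes of the unfolded protein response 14 rose and 2 fell, with a median of 0.62. Atf3, a repressor induced by many stresses, went from 8.36, 11.2 and 11.1 CPM to 343, 430 and 365, a 37-fold rise (adjusted p = 2.3e-19). Ddit3, which encodes CHOP, rose 3.46-fold, Chac1 4.42-fold, Gdf15 5.10-fold and Atf4 itself 2.62-fold. Asns, asparagine synthetase, rose from 81.0 to 92.2 CPM to 208 to 218. The members that fell were Slc38a2, an amino acid carrier, by 2.37-fold and Vldlr by 2.71-fold, and Slc7a11 (log2 fold change 0.29), Sesn2 (0.28) and Psat1 (0.53) did not reach the thresholds. Hspa5, the chief chaperone of the endoplasmic reticulum, rose 1.57-fold (log2 fold change 0.56 without hypoxia replicate 2, short of the threshold) and Creld2 2.64-fold, while the sensor Atf6 fell 1.94-fold. Of 20 cytosolic aminoacyl-tRNA synthetases 7 rose (35%, against 26.4% of all genes) and none fell.

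Immediate early genes, which are switched on within minutes of a signal and without new protein, were high after 6 h. Of 30 tested 25 rose, none fell and the median log2 fold change was 2.05. Egr1 stood at 52.2, 50.4 and 46.4 CPM in control and 544, 776 and 463 in hypoxia. Arc went from 1.03, 1.17 and 1.64 CPM to 86.7, 122 and 69.0, and Fosb from 1.80, 1.90 and 0.966 to 50.6, 146 and 77.8. Hypoxia replicate 2 was the highest of its group for these genes and for Fos, Egr3, Nr4a1 and Myc, which ranged in hypoxia over 26.3 to 44.1, 34.1 to 80.3, 193 to 455 and 92.3 to 144 CPM. All of them lay above every control library. Brakes on the MAP kinase pathway rose in 11 of 17 (64.7%, against 26.4% of all genes), among them Errfi1 (7.13-fold) and Dusp6 (4.40-fold). Klf6, a Kruppel-like factor, rose 3.93-fold. Secreted signals were higher too, with 13 of 17 tested cytokine and chemokine genes called higher and Il33 lower. Ptgs2, the inducible cyclooxygenase, rose 8.31-fold from 17.2 to 25.1 CPM to 126 to 250, Il6 5.63-fold and Ccl2 2.59-fold. Il1a, Il1b, Tnf and Csf2 were not tested for want of counts. Nfkbiz rose 8.24-fold and Bcl3 5.32-fold, while Nfkbia (log2 fold change 0.23) and Icam1 (0.29) did not reach the thresholds.

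Cytosolic ribosomal protein genes rose almost without exception. Of 83 tested 81 rose and none fell, the median log2 fold change was 1.34, and their share of counts went from 2.14%, 2.08% and 2.09% to 5.76%, 5.25% and 6.01%. Rps6 went from 391, 387 and 382 CPM to 1002, 1009 and 1064. Rpl24 (log2 fold change −0.28) and Rpl7l1 (0.22) were not called. These genes have many processed copies in the genome, so their single counts are uncertain. Eef1a1, an elongation factor whose messenger RNA is controlled like those of ribosomal proteins, rose 2.05-fold, and 14 of 17 small nucleolar RNA host genes rose, Gas5 by 2.18-fold. Of the genes that build ribosomes 8 of 28 were higher (28.6%, near the 26.4% of all genes) and 3 lower, and Polr1a, the large subunit of RNA polymerase I, fell 2.07-fold. In the large family of Zfp zinc finger genes, 28 of 324 were higher (8.64%) and 120 lower (37%), against 26.4% and 25.1% of all genes.

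Of 39 collagens 20 rose and 1 fell, and of 28 other matrix genes 17 rose and 3 fell. Col1a1 went from 3097, 3914 and 3769 CPM to 8695, 7213 and 8407, a 2.26-fold rise, and Sparc, Bgn and Dcn rose 2.66-fold, 3.25-fold and 2.77-fold. Vcan fell 4.73-fold and Lama2, the laminin of muscle basement membrane, 2.94-fold. Vim, the intermediate filament of fibroblasts, rose 3.05-fold. Fibroblast and epicardial marker sums rose in the same libraries, as given above, and their part in the matrix rises was not tested. Col1a1, Col3a1, Dcn and Postn belong both to the fibroblast markers and to the matrix lists, so the fibroblast sum is not a separate observation. Of the fibroblast markers, Pdgfra (77.9, 72.9 and 76.1 against 86.0, 90 and 82.5 CPM) and Lum (log2 fold change 0.29) were not called. DNA replication genes rose in 21 of 32 and none fell, and 14 of 26 mitosis genes rose, though Mki67, the usual marker of cycling cells, did not pass (log2 fold change 0.27). Cholesterol synthesis and uptake genes rose in 16 of 25, and 22 of 28 lysosomal genes rose, Npc2 by 3.45-fold and Hexa by 3.18-fold.

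Genes of muscle wasting, cell death and defence against oxidants were mixed. Trim63 and Fbxo32, the muscle ubiquitin ligases known for their rise in starved muscle, fell 20.8-fold and 6.17-fold, the former from 265, 294 and 296 CPM to 12.9, 16.1 and 12.3. In autophagy 3 of 28 genes rose (10.7%, against 26.4% of all genes) and 10 fell (35.7%, against 25.1%). Mfn2, Mfn1, Opa1 and Pink1 of mitochondrial fusion and quality control fell, Mfn2 by 7.96-fold. Of 14 tested BCL2 family genes 6 rose (42.9%), 3 fell (21.4%) and 5 were not called. Bax rose 3.16-fold, Pmaip1 2.86-fold and Bbc3 2.41-fold, all promoters of apoptosis, while Bik and Bcl2l11, of the same kind, fell (log2 fold changes −4.52 and −1.91) and Mcl1, an inhibitor, was not called (log2 fold change −0.29). Of 21 p53 targets and cell cycle inhibitors 9 rose (42.9%) and 2 fell (9.52%), with Cdkn1a up 1.98-fold. Of 21 NRF2 targets 7 rose (33.3%, against 26.4% of all genes) and 2 fell, and upper-quartile scaling took the called ones from 9 to 14. Sod2, the superoxide dismutase of mitochondria, fell 3.65-fold from 253 to 267 CPM to 68.5 to 75.8, while Sod1 and the secreted Sod3 rose (log2 fold changes 0.66 and 1.37).

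Among all protein-coding genes with a mean of at least 1 CPM, the 10 largest rises held several that belong to none of these programmes. Cx3cr1, a chemokine receptor of macrophages, was at 0.135, 0.0452 and 0.676 CPM in control and 139, 81.9 and 122 in hypoxia, a log2 fold change of 8.65, although every macrophage marker fell. On mouse build mm10 its gene model runs on the minus strand of chromosome 9 from 119901616 to 120069879 and spans Csrnp1 (119971163 to 119984658) and Xirp1 (120013755 to 120023598) on the same strand, and overlaps Wdr48 and Ttc21a on the other. Of these Csrnp1 rose 3.15-fold and Xirp1 fell 59.6-fold, and whether reads of neighbouring transcripts entered the count of Cx3cr1 was not tested. Mc1r, the melanocortin receptor, rose from 0.0903 to 0.270 CPM to 8.96 to 17.2. Its gene model lies 680 bases from that of Tubb3 on the same strand, which rose by 1.31 on the log2 scale. Gm10800 had no count in the control libraries and 626 counts in hypoxia, most of them in replicate 2 (4.30, 27.6 and 4 CPM), and Prdm14, Mmp25, Prtn3 and Best2 had 1, 1, 1 and 2 counts over the control libraries against 265, 185, 110 and 132. The largest falls were those of Ankrd63, Crh, C1qa, Nt5c1a, Cdh20, Irx3, Xirp1, Esrrb, Mlc1 and Gpr22. Irx3, a transcription factor of the conduction system, went from 116, 145 and 130 CPM to 1.72, 2.20 and 2.32, a 62.8-fold fall. Esrrb, an oestrogen-related receptor, fell 54.4-fold beside its relatives Esrrg (18.2-fold) and Esrra (4.05-fold), and C1qa, a macrophage complement gene, kept 1 count of 178.

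Counted by CPM rather than by fold, the 10 largest losses were those of mt-Co1, Myh6, mt-Nd5, Tnnt2, Actc1, mt-Nd1, Atp2a2, mt-Cytb, Tpm1 and mt-Nd2, all of them transcripts of the filaments, of calcium uptake or of the mitochondrial genome. The 10 largest gains were those of mt-Rnr2, Eef1a1, CT010467.1, mt-Rnr1, Sparc, Hspa1b, Bgn, Col1a1, Hspa1a and Vim. CT010467.1, annotated as a ribosomal RNA, stood at 1713, 3660 and 4010 CPM in control and 10302, 9463 and 7167 in hypoxia.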

How the data were processed

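RNA was extracted with Trizol, enriched for poly(A) and sequenced. The deposited values are raw counts of 55401 genes. Per the labels the authors aligned reads with HISAT2 to mm10 and counted them with featureCounts; per the file header this was version 2.0.1, over exons of GENCODE vM25, with fragments of read pairs and no strand option. No deposited column was left out, and the 3 rSRGN libraries served only the fit.

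edgeR 4.0.16 (R 4.3.3) was used here: filterByExpr, TMM scaling, a quasi-likelihood fit over all 9 libraries and the contrast of hypoxia with control, with p-values adjusted by Benjamini-Hochberg. Calls needed an adjusted p under 0.05 and a fold of at least 1.5. CPM used TMM-scaled library sizes. The script was tested on simulated counts of the 16762 genes, where 148 of 200 genes changed 2-fold were called (74%), with 2 of the unchanged. Only those 200 genes changed, against 51.6% of genes called in the data, so the simulation does not test scaling under changes this wide. DESeq2 1.42.0 was an alternative. Any member of the 78 gene lists could be named. Values per library were given for anchor genes and, in each list, for up to 2 rises and 2 falls, the largest among called genes at 1 CPM or more on average whose groups do not overlap; over all protein-coding genes the 10 largest rises and falls by these criteria, and over all genes the 10 largest gains and losses of CPM, were named. Other genes given with values were chosen after their values were seen. Members and lists were chosen with earlier results of these data known. Counts bound the precision through counting error only, and the libraries number 3 a group. Promoter windows were the 250 bases before the start in RefSeq's GRCm38.p6 table, nearest the gene's 5′ end.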

Additional observations from a re-analysis of the deposited data

How the results depend on the processing

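Over 21 other settings, the number of called genes ranged from 5739 (a limit of 2-fold, 2867 of them higher) to 11876 (no fold limit), and no gene was called in the opposite direction under any of them. A filter of at least 10 counts in every library left 6728. DESeq2 called 8548, and the 6 fits that left out a control or hypoxia library and the 3 that left out an rSRGN library called 8496 to 8952. Replicate numbers did not pair the libraries: deviations of same-numbered libraries correlated at −0.037 to 0.022, and a fit with the replicate block called 8550. Upper-quartile scaling moved the median log2 fold change of all genes from 0.05 to 0.19 and the share of higher genes among those called from 51.3% to 59%. Under it autophagy's median turned from −0.11 to 0.03, and called genes went from 4 to 9 for the proteasome, 2 to 4 for TRiC and 9 to 14 for NRF2 targets. Scaling by library size gave 7 for the proteasome. With at least 10 counts in every library, a filter that leaves out scarce genes, called histones went from 20 to 13 and called macrophage markers from 8 to 3. Of all gene list counts, 54 moved with a change of threshold and 10 with any other setting. Depth limits the scarce genes: those with 1 or 2 counts in a group have no firm fold.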

Other observations

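Transcripts that answer oxygen spread within the control group, a pattern chosen after its values were seen. Egln3, a HIF prolyl hydroxylase and itself a HIF target, stood at 10.1, 22.4 and 49.8 CPM in control replicates 1, 2 and 3, against 19.2, 23.5 and 19.8 in hypoxia. Bnip3 stood at 29.7, 50.0 and 77.1 CPM and Slc2a1 at 83.1, 114 and 145. The highest control library was 4.94 times the lowest for Egln3, 2.59 times for Bnip3 and 1.75 times for Slc2a1, where the median over 14306 genes with a mean of at least 1 CPM was 1.16. Control replicate 3 was the highest of its group for 31 of 44 HIF targets and HIF system genes at that level, and for 31.8% of the 14306 genes. Without control replicate 1 Egln3 was called lower, at −0.81 on the log2 scale. Without control replicate 3 the log2 fold change was 0.35 in place of −0.39 for Egln3, −1.76 in place of −2.14 for Bnip3 and −2.93 in place of −3.06 for Pdk1. No oxygen level is given for the control cultures in the sources used here.

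Of 19 clock genes 6 were higher (31.6%, against 26.4% of all genes) and 8 lower (42.1%, against 25.1%). Arntl, which encodes BMAL1, rose 3.88-fold from 10.4 to 11.4 CPM to 39.6 to 46.4, and Nfil3 rose 5.53-fold, while the output genes Dbp and Hlf fell 5.31-fold and 13.3-fold. In the growth factor list 12 of 25 genes rose (48%, against 26.4% of all genes) and 9 fell (36%, against 25.1%). Areg, Ereg and Hbegf, ligands of the EGF receptor, rose (log2 fold changes 2.83, 1.67 and 1.44). Erbb4 and Erbb3, receptors of neuregulin, fell (log2 fold changes −3.34 and −2.17). Of the genes of the imprinted Dlk1-Dio3 region in the list of long noncoding RNAs, Mirg rose 6.13-fold, Rian 2.83-fold and Meg3 by 1.45 on the log2 scale, and Mhrt, an antisense transcript of the Myh7 locus, fell 9.43-fold. Counts made without strand cannot tell Mhrt from its partner.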
